A study of Mus musculus with 102 samples.

Results

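The comparison set calorie restriction (CR) against control diet in epidermal stem cells of adult mice at zeitgeber time (ZT) 0, the start of the light phase. Its members are the 9 arrays, out of 53 of adult and 49 of aged mice in the series, whose labels give an age of 47 to 57 weeks and collection at ZT 0 h: 5 arrays of mice under CR and 4 of mice on control diet. The CR mice were given 30% less food than the control mice ate, for 25 weeks, after 3 weeks in which their ration was lowered by 10% per week. The control mice ate control diet freely. The mice were 19 to 29 weeks old when the adaptation began. All 9 came from C57B6/J mice with a Per1-Venus BAC transgene, in which the clock gene Per1 is read out by fluorescence. The series also sampled ZT 4, 8, 12, 16 and 20 h and mice aged 83 to 97 weeks. Each array is labelled as a separate sample, and each day of collection was given to a single time point. The design text gives 4 mice per diet and time while 5 CR arrays carry this label, and no label says whether arrays share a mouse or which day a mouse was killed. The p values therefore measure a spread between arrays, which may be partly technical. Except in a fit of the 9 arrays alone, that spread is pooled over all 24 groups of the series and is not that of these 9 arrays.

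Epidermal stem cells sit in the basal layer of the skin epithelium and in the hair follicle, where they renew themselves and supply differentiating keratinocytes. Their divisions, DNA replication and energy metabolism follow the circadian clock, a feedback loop in which Clock and Arntl switch on the Per and Cry genes, whose products switch Clock and Arntl off. CR with rationed meals changes when nutrients arrive, and cells read a shortage or surplus of amino acids, glucose and lipids through separate pathways, among them the amino acid response driven by the transcription factor ATF4, insulin and FoxO signalling, and the lipid-sensing PPAR receptors. At ZT0 a nocturnal mouse that eats freely has just ended its active phase.

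Basal keratinocyte markers were high on all 9 arrays, as the label epidermal stem cells requires. Krt14 lay between 12.4 and 12.6 under CR and between 12.4 and 12.5 on control diet, in log2 units, and the mean of the 7 basal markers lay between 11.54 and 11.79 under CR and between 11.41 and 11.74 on control diet. Keratins of the suprabasal layer were also high (Krt10 11.57 to 11.85 under CR, 11.48 to 12.1 on control diet). Of the 10 markers of the hair follicle bulge 6 were above the floor for testing, among them Cxcl14 (mean 11.34 under CR, 11.12 on control diet) and Sox9 (9.25 under CR, 9.47 on control diet), while Cd34, Lgr5, Lhx2 and Tbx1 were under it. How the cells were isolated is not given in the sources used here. The T cell, macrophage, fibroblast, endothelial, muscle, adipocyte and melanocyte lists had low means, at most 5.8 under CR and 6.16 on control diet. Within the T cell list Thy1 was higher (8.38 under CR, 8.76 on control diet). The Langerhans cell list had means of 6.31 to 6.62 under CR and 6.21 to 6.33 on control diet. The erythroid list had 6.03 to 6.19 under CR and 5.7 to 6.1 on control diet. Its member Hba-a1 was higher on every CR array (7.92 to 8.34) than on any control array (7.24 to 7.74) and did not pass. Of 63 tested markers of 16 cell types, 0 rose at an adjusted p under 0.05 (limma), against 5.74% of all tested genes, and 2 fell (3.17%, against 0.927%), the inner root sheath keratin Krt25 (mean 5.88 under CR, 6.39 on control diet) and the cytotoxic granule gene Nkg7 (5.11 under CR, 5.53 on control diet). Neither passed without control replicate 1, an array described next. In bulk RNA, fewer cells of a type and less RNA per cell cannot be told apart.

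Control replicate 1 stood apart from the other arrays, and most calls depended on it. This array correlated with the other 8 arrays at r = 0.878 to 0.941 over genes, while those 8 correlated among themselves at 0.929 to 0.99. The other controls were also less alike than the CR arrays. Control replicates 2 to 4 correlated among themselves at 0.929 to 0.969, and the CR arrays at 0.967 to 0.99. The 3′ probe sets of Gapdh, a control for degraded RNA, exceeded the 5′ ones by 0.037 to 0.32 log2 units on the CR arrays, by 0.996 on control replicate 1 and by −0.012 to 0.631 on the other control arrays. The residual SD at ZT0 was 0.266 for adult CR arrays and 0.494 for adult control arrays, the largest among 24 groups. No arrays were duplicates of each other, and Xist exceeded the Y-linked genes on 3 of 5 CR and 2 of 4 control arrays.

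The limma fit over all arrays of the series, in which all groups share an estimate of the spread, called 892 of 13383 tested genes at a Benjamini-Hochberg adjusted p under 0.05, which is 6.67% of them. Under CR 768 genes rose (5.74%) and 124 fell (0.927%). Without control replicate 1 the same fit called 9 genes (0.0672%), of which 6 rose (0.0448%) and 3 fell (0.0224%), and all 9 were among the 892. In a fit of the 9 arrays alone limma called 0 genes, and 1242 had an unadjusted p under 0.05 (9.28%). With each other array of the 9 left out in turn, the fit over the whole series called between 277 and 2684 genes, as the bar plot of calls by array left out shows. Among the 768 genes that rose, control replicate 1 was the lowest of all 9 arrays in 642, and among the 124 that fell it was the highest in 82, against 27.2% of all tested genes in which it was lowest and 16.4% in which it was highest. Without it the median difference of the 768 went to 0.42, against 0.67 with it, and that of the 124 to −0.47, against −0.64. All 892 kept their sign. Whether RNA quality contributed to these calls was not tested. Every result below is given with and without control replicate 1 where the call differs.

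**Figure D1:**
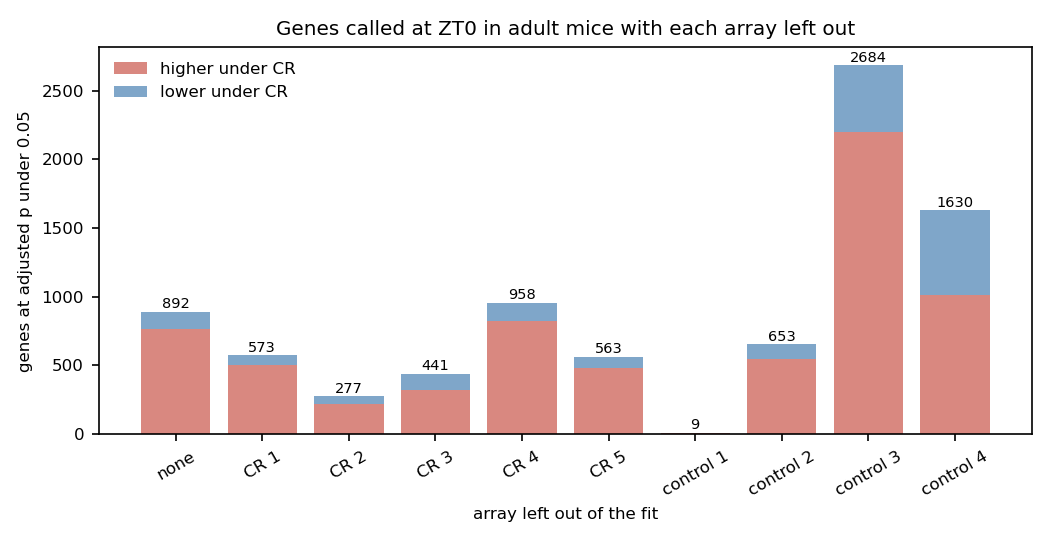
Number of genes at adjusted p under 0.05 for CR against control at ZT0 in adult mice (vertical axis), with no array or 1 of the 9 arrays left out (horizontal axis), split into genes higher and lower under CR. The count falls to 9 without control replicate 1 and reaches 2684 without control replicate 3.

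The 9 genes that remained called are described first; they were picked out after their values had been seen, since they passed in the fit of all arrays and in each of the 9 fits that left out an array. Under CR, Chac1, Pik3r3 and Procr fell and Plin3, Nudt17, Sema4g, Tmem80, Srrd and Dxo rose. Each was measured by a single probe set. None passed in the fit of the 9 arrays alone, where the adjustment is made over the same 13383 genes (limma, adjusted p = 0.529 for each). The unadjusted p values of that limma fit were 0.00831 for Pik3r3, 0.00377 for Procr, 0.00111 for Plin3 and 0.000374 for Nudt17. They were 0.00159 for Tmem80, 0.0113 for Dxo, 0.00804 for Sema4g and 0.0114 for Srrd, and that of Chac1 is given below.

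Chac1, an enzyme that degrades glutathione and a target of ATF4, fell most. Its log2 levels were 4.75, 4.58, 6.31, 6.34 and 4.46 under CR and 7.23, 8.04, 7.05 and 6.47 on control diet. Of the CR arrays 3 lay close to the floor for testing of 4.735 and replicates 3 and 4 well above it, and all 5 lay below every control array. The difference was −1.91 ± 0.35 (SE; limma, adjusted p = 0.00232) and −1.90 without control replicate 1 (adjusted p = 0.0147); in the 9 arrays alone the p was 0.0018.

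Pik3r3, a regulatory subunit of phosphoinositide 3-kinase, which relays insulin and growth factor signals, had levels of 5.78, 5.78, 6.59, 5.65 and 5.71 under CR and 6.72, 6.68, 7.38 and 6.18 on control diet. CR replicate 3 lay above control replicate 4, so the groups overlapped, and the other 4 CR arrays lay below all controls. The difference was −0.84 ± 0.14 (SE; limma, adjusted p = 0.00152) and −0.84 without control replicate 1 (adjusted p = 0.00528). Procr, the receptor for protein C and a surface marker of several stem cell populations, had 4.78, 4.70, 4.80, 5.20 and 4.74 under CR and 4.98, 5.65, 6.24 and 5.99 on control diet. Here control replicate 1 was the control array nearest to the CR arrays, and the other 3 controls lay above all CR arrays. The difference was −0.87 ± 0.20 (SE; limma, adjusted p = 0.00634), and it was −1.12 without control replicate 1 (adjusted p = 0.00528). Procr under CR lay close to the floor, where an array understates a difference.

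Plin3, a coat protein of lipid droplets, had levels of 8.39, 8.54, 8.36, 8.37 and 8.55 under CR and 7.66, 7.77, 8.12 and 7.36 on control diet. The CR arrays lay close to each other and above every control. The difference was 0.71 ± 0.14 (SE; limma, adjusted p = 0.00256) and 0.69 without control replicate 1 (adjusted p = 0.042). Nudt17, of the Nudix hydrolases, had 7.41, 7.34, 7.49, 7.86 and 7.53 under CR and 6.73, 6.71, 6.76 and 6.97 on control diet. Its groups did not overlap, and the difference was 0.73 ± 0.15 (SE; limma, adjusted p = 0.00256; 0.0494 without control replicate 1).

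The other 4 genes rose by less. Tmem80, a membrane protein, had 6.82, 7.11, 6.80, 6.85 and 7.13 under CR and 6.45, 6.28, 6.44 and 6.38 on control diet, with no overlap and a difference of 0.55 ± 0.12 (SE; limma, adjusted p = 0.00502; 0.0496 without control replicate 1). Dxo, an exonuclease that removes RNAs with faulty caps, had 7.86, 7.93, 8.00, 7.92 and 8.02 under CR and 7.75, 7.54, 7.60 and 7.21 on control diet. Its groups did not overlap either, and the difference was 0.42 ± 0.10 (SE; limma, adjusted p = 0.00672; 0.0219 without control replicate 1). Sema4g, a transmembrane semaphorin, had 6.80, 6.41, 6.48, 6.71 and 6.09 under CR and 6.27, 5.94, 5.72 and 5.58 on control diet, and Srrd had 6.77, 6.59, 6.45, 7.05 and 6.92 under CR and 6.42, 6.45, 6.06 and 6.05 on control diet. In both genes the lowest CR array reached the range of the controls. Their differences were 0.62 ± 0.15 (SE; limma, adjusted p = 0.0085; 0.0219 without control replicate 1) for Sema4g and 0.51 ± 0.12 (SE; limma, adjusted p = 0.00713; 0.0496 without control replicate 1) for Srrd. In 5 of the 9 genes the groups did not overlap, against 2.9% of all tested genes, a share that is given as background only since the 9 were chosen for their values.

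**Figure D2:**
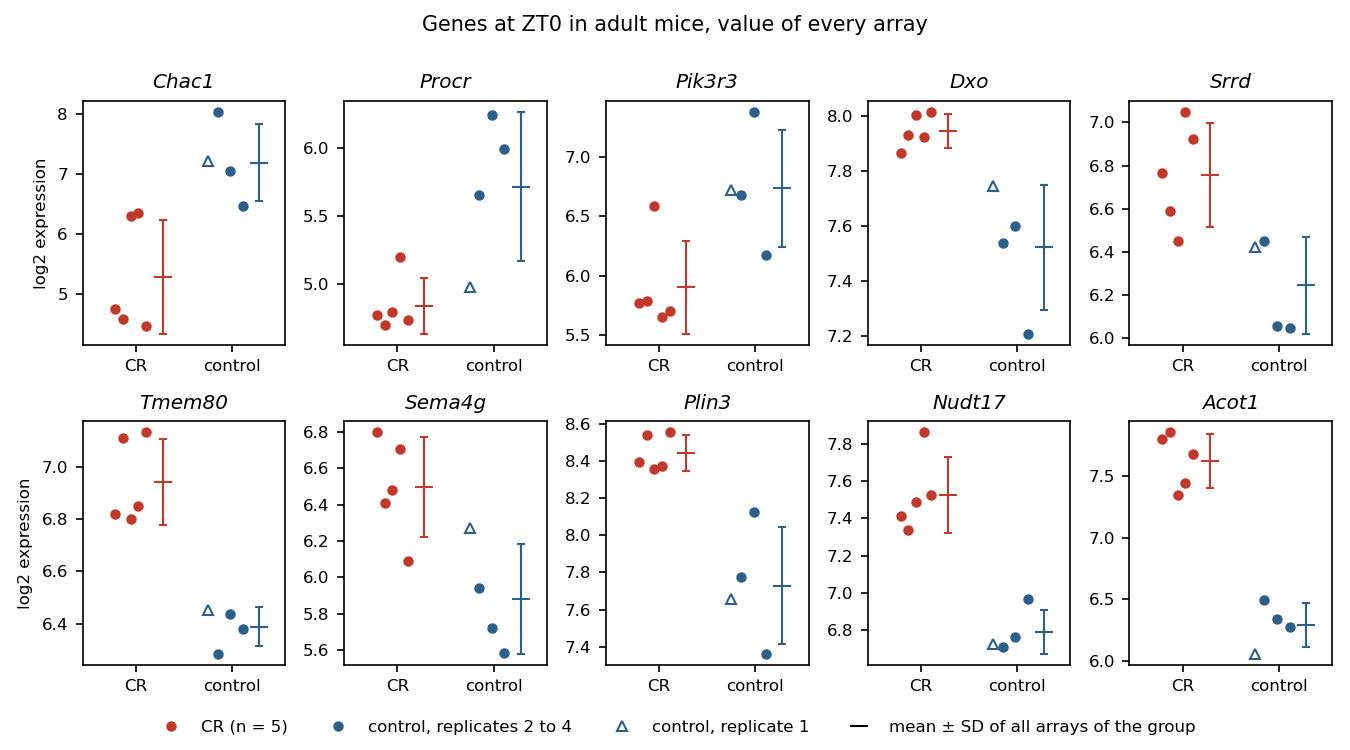
Log2 expression (vertical axis) of 10 genes at ZT0 on each CR and control array of adult mice, with the mean ± SD of each group; the open triangle is control replicate 1. In Chac1, Dxo, Tmem80, Plin3, Nudt17 and Acot1 the CR and control arrays do not overlap, and Pik3r3, Procr, Srrd and Sema4g overlap.

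Chac1 belongs to the amino acid response, in which ATF4 raises enzymes and transporters that make or import amino acids. Of the list's 15 tested genes 0 rose and 4 fell under CR, against 5.74% and 0.927% of all tested genes. Their median difference was −0.39, and −0.31 without control replicate 1, while the median of all tested genes was 0.06 in both. Without control replicate 1, Chac1 was the only member past the threshold.

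Asns, which makes asparagine, had levels of 8.28, 8.10, 8.87, 8.59 and 8.05 under CR and 9.91, 9.60, 8.99 and 8.47 on control diet. Control replicate 4 lay within the CR range, and the difference was −0.86 ± 0.19 (SE; limma, adjusted p = 0.00548; −0.64 and 0.213 without control replicate 1). Trib3, a pseudokinase that restrains ATF4 and the kinase Akt, had 5.62, 5.47, 5.99, 6.16 and 5.60 under CR and 6.42, 6.49, 6.72 and 6.21 on control diet. Its groups did not overlap, and leaving out control replicate 1 moved the difference little, −0.69 ± 0.17 (SE; limma, adjusted p = 0.0118) with it and −0.70 (adjusted p = 0.112) without it. CR replicates 3 and 4 were the highest of the 5 CR arrays for Chac1, Asns and Trib3 alike. Slc3a2, the common chain of several amino acid transporters, fell by 0.49 ± 0.16 (SE; limma, adjusted p = 0.0428; 0.615 without control replicate 1), with overlapping groups.

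The other 11 tested members did not pass. Atf4 itself averaged 10.5 ± 0.14 under CR and 10.9 ± 0.32 on control diet (SD, n = 5 and 4; limma, adjusted p = 0.118). Slc7a5, which pairs with Slc3a2 to import large neutral amino acids, averaged 7.75 ± 0.71 under CR and 8.45 ± 0.62 on control diet (adjusted p = 0.124). Vldlr averaged 5.33 ± 0.16 under CR and 5.76 ± 0.54 on control diet (adjusted p = 0.0594), and Shmt2 7.77 ± 0.16 under CR and 8.13 ± 0.47 on control diet (adjusted p = 0.162). The serine synthesis genes Psat1, Psph and Phgdh differed by 0.10, 0.17 and −0.24, and none passed. Mthfd2, Slc7a11 and Cth were not tested.

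The promoters of Chac1, Asns and Trib3, which had the largest falls of the 4 called genes, are shown because ATF4 binds, with a C/EBP partner, a composite element of the form TGATGNAA. The windows run from 250 bases before to 50 after the start of each gene, from RefSeq on GRCm38.p6, and were read for TGATGNAA on both strands; capitals mark the match, which reads as its reverse complement in Chac1 and Trib3. Chac1 is at chr2:119350992-119351291 on the plus strand, Asns at chr6:7693160-7693459 on the minus strand and Trib3 at chr2:152344011-152344310 on the minus strand.
Chac1: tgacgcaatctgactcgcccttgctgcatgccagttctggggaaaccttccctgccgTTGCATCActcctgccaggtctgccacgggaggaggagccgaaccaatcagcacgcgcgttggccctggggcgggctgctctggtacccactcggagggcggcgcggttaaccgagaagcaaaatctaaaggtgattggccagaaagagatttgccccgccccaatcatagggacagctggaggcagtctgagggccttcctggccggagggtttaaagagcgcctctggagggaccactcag
Asns: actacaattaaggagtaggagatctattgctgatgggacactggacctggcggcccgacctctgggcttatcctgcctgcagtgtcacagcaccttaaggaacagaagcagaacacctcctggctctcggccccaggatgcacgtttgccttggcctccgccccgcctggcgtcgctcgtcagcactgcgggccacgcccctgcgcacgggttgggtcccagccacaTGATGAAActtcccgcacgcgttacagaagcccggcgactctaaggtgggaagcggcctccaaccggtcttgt
Trib3: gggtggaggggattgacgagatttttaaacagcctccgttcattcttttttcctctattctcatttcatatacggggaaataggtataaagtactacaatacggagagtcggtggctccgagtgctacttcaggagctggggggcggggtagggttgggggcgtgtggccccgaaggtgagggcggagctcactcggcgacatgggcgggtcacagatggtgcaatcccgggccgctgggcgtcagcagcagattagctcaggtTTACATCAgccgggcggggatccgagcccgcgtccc
The match lies 193 bases before the start in Chac1, 23 bases before it in Asns and 14 bases after it in Trib3. Of the 16 list genes with a window, 6 held the motif (37.5%), among them 3 of the 4 that fell and 2 of the 10 that were tested and did not pass. Of all genes with a window 4.51% held it. A match is a description of the letters and does not show binding in these cells.

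The day course placed the Chac1 difference at a time when the gene was high. In adult mice Chac1 averaged 5.29 ± 0.95 under CR and 7.19 ± 0.65 on control diet at ZT0 (SD, n = 5 and 4), while its means at the other 5 times lay between 4.51 and 4.73 under CR and between 4.27 and 4.76 on control diet. Thus both diets had their highest adult mean at ZT0, and the CR mean was closer to those of the other times. Asns averaged 8.38 ± 0.35 under CR and 9.24 ± 0.64 on control diet at ZT0, against 8.13 to 8.33 under CR and 8.15 to 8.38 on control diet at the other times. Trib3 had 5.77 ± 0.29 under CR and 6.46 ± 0.21 on control diet at ZT0, against 5.36 to 5.62 under CR and 5.31 to 5.52 on control diet at the other times. The effect at ZT0 minus the mean effect at the other 5 times was −2.02 ± 0.38 for Chac1 (SE; limma, adjusted p = 0.0064), −0.82 ± 0.21 for Asns (adjusted p = 0.039) and −0.73 ± 0.19 for Trib3 (adjusted p = 0.0435). Without control replicate 1 these gave −2.01, −0.60 and −0.75 with adjusted p of 0.069, 0.726 and 0.451, and none passed.

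In aged mice Chac1 was also high at ZT0, 6.33 ± 1.68 under CR and 6.97 ± 0.79 on control diet (SD, n = 5 and 4), with 4.47 to 4.73 under CR and 4.34 to 4.71 on control diet at the other times. The aged difference at ZT0 was −0.64 ± 0.35 (SE; limma, adjusted p = 0.62). The adult effect minus the aged effect was −1.26 ± 0.49 (SE; limma, adjusted p = 0.085), so a difference between the ages was not established for Chac1. Trib3 gave −0.50 for the same contrast (adjusted p = 0.187) and Asns −0.83 (adjusted p = 0.0383; 0.301 without control replicate 1). Plin3 at ZT0 averaged 8.44 ± 0.10 under CR and 7.73 ± 0.32 on control diet in adult mice and 8.06 ± 0.30 under CR and 8.27 ± 0.04 on control diet in aged mice. In each of the 4 conditions its ZT0 mean was below all its means at other times, which lay between 8.51 and 9.18.

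**Figure D3:**
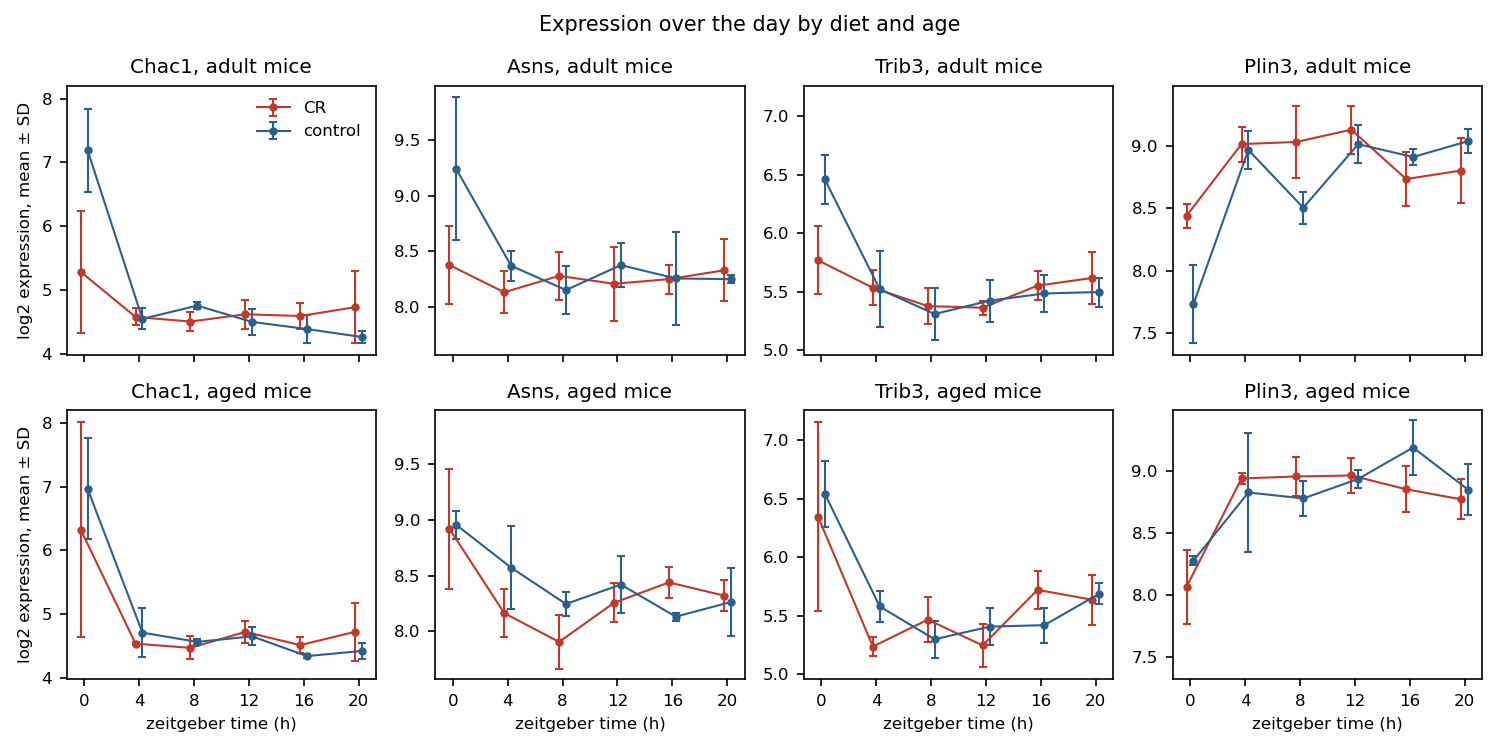
Mean ± SD of log2 expression (vertical axis) of Chac1, Asns, Trib3 and Plin3 over zeitgeber time in h (horizontal axis) under CR and on control diet, in adult mice above and aged mice below; groups hold 3 to 6 arrays. In adult mice Chac1 and Trib3 are highest and Plin3 is lowest at ZT0, under both diets.

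The unfolded protein response, which raises chaperones of the endoplasmic reticulum and shares Atf4 and Ddit3 with the amino acid response, had fewer calls. Of 19 tested genes 0 rose and 2 fell, against 0.927% of all tested genes that fell. They were Hyou1 (8.66 ± 0.48 under CR, 9.57 ± 1.15 on control diet, SD; limma, adjusted p = 0.047) and Canx (10.7 ± 0.16 under CR, 11.1 ± 0.46 on control diet; adjusted p = 0.0353). Other Hyou1 probe sets gave smaller differences, −0.25 ± 0.15 and −0.20 ± 0.23 (SE). The median difference was −0.20, and 16 of 19 genes had a negative value, against 39.3% of all tested genes. Leaving out control replicate 1 gave a median of −0.22 with 17 of 19 negative (36.8% of all tested genes), and none passed. Ddit3, a factor tied to cell death under stress, lay lower on every CR array (8.61 ± 0.16 under CR, 9.07 ± 0.23 on control diet) with an adjusted p of 0.0569. Hspa5, the main chaperone of the compartment, averaged 9.97 ± 0.20 under CR and 10.4 ± 0.14 on control diet (adjusted p = 0.246).

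Of 23 tested genes of fatty acid oxidation and fasting 3 rose and 0 fell, against 5.74% and 0.927% of all tested genes, and 20 did not pass. The median difference was 0.30 (0.17 without control replicate 1), and 18 of 23 were positive, against 60.7% of all tested genes (20 of 23 without that array, against 63.2%). Control replicate 1 was the lowest of the 9 arrays in 12 of the 23. Acot1, which frees fatty acids from coenzyme A in the cytosol and is a PPARα target, had levels of 7.80, 7.86, 7.35, 7.45 and 7.68 under CR and 6.06, 6.49, 6.34 and 6.28 on control diet. The groups did not overlap, and the difference was 1.34 ± 0.29 (SE; limma, adjusted p = 0.00432). Acot1 had the smallest adjusted p in the fit of the 9 arrays alone, 0.0521, and gave 0.093 without control replicate 1. Its mitochondrial relative Acot2 had 7.40, 7.67, 7.49, 7.35 and 7.52 under CR and 6.64, 6.43, 6.34 and 6.99 on control diet, also without overlap, and rose by 0.88 ± 0.20 (SE; limma, adjusted p = 0.00672; 0.093 without control replicate 1). Both genes are neighbours with near-identical sequence, so their probe sets may share signal and the pair is uncertain as separate evidence. The third was Acaa2, the thiolase of the last step of β-oxidation, at 10.8 ± 0.12 under CR and 10.3 ± 0.25 on control diet (SD; adjusted p = 0.0311; 0.496 without control replicate 1).

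The carnitine transferase Cpt1a, the entry step of mitochondrial oxidation, averaged 9.36 ± 0.23 under CR and 8.95 ± 0.35 on control diet (limma, adjusted p = 0.147). Ppara gave 7.88 ± 0.44 under CR and 7.36 ± 0.63 on control diet (adjusted p = 0.11), and Angptl4, a fasting-induced PPAR target, 7.53 ± 0.29 under CR and 7.49 ± 1.10 on control diet (adjusted p = 0.975). Pdk4 and Cd36 were not tested. In triglyceride synthesis 2 of 22 genes rose and 0 fell, against 5.74% and 0.927% of all tested genes (median 0.11, and 0.15 without control replicate 1). Dgat2, which adds the last fatty acid to a triglyceride, had 8.26, 8.09, 8.69, 8.74 and 8.57 under CR and 7.26, 7.51, 7.98 and 7.64 on control diet. Its groups did not overlap, and it rose by 0.87 ± 0.18 (SE; limma, adjusted p = 0.00322; 0.76 and 0.093 without control replicate 1). Me1, which supplies NADPH for lipid synthesis, had 9.62, 9.83, 9.69, 9.99 and 9.20 under CR and 8.96, 9.15, 9.07 and 9.19 on control diet and rose by 0.58 ± 0.17 (adjusted p = 0.0257; 0.325 without control replicate 1). Fasn and Acaca, the core enzymes of fatty acid synthesis, differed by −0.08 and 0.21 and did not pass. In the cholesterol list 2 of 20 genes rose, Ebp and Tm7sf2, against 5.74% of all tested genes, and the median was −0.08. Both had adjusted p of 0.506 or more without control replicate 1.

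Oxidative phosphorylation showed how far control replicate 1 reached. Of 24 tested genes 7 rose and 0 fell, against 5.74% and 0.927% of all tested genes, among them Cox4i1, Ndufb8 and Ndufv1 of the respiratory complexes, and the median was 0.42. Control replicate 1 was the lowest of the 9 arrays in 21 of the 24, against 27.2% of all tested genes. Without it 0 of 24 passed and the median was 0.19, with 22 of 24 positive, against 63.2% of all tested genes. Cox4i1 had levels of 11.31, 11.35, 11.42, 11.29 and 11.22 under CR and 8.35, 10.31, 11.35 and 11.31 on control diet. Control replicates 3 and 4 lay among the CR arrays, while replicate 1 was far below them and replicate 2 less so. The mean list level lay between 10.06 and 10.24 on the CR arrays and between 8.97, on control replicate 1, and 10.19 on the control arrays.

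Insulin and FoxO signalling kept its median of 0.27 with and without control replicate 1. Of 17 tested genes 3 rose and 1 fell, against 5.74% and 0.927% of all tested genes. Sesn1, a stress-induced brake on the growth kinase mTORC1, had 8.72, 8.70, 8.83, 8.41 and 8.67 under CR and 5.73, 8.06, 8.06 and 7.69 on control diet. All controls lay below the CR arrays, replicate 1 by far the most, and the rise was 1.28 ± 0.39 (SE; limma, adjusted p = 0.0335), against 0.73 and 0.569 without it. Fbxo32, a ubiquitin ligase that FoxO factors induce in muscle, rose by 1.03 ± 0.23 (adjusted p = 0.00614; 0.52 and 0.439 without control replicate 1). Txnip, an inhibitor of glucose uptake, had 10.94, 11.25, 10.66, 11.13 and 11.36 under CR and 10.33, 10.96, 9.79 and 10.36 on control diet, a rise of 0.71 ± 0.23 (adjusted p = 0.0436), and 0.70 with an adjusted p of 0.339 without control replicate 1. Igfbp3, which binds insulin-like growth factors, fell by 0.52 ± 0.16 (adjusted p = 0.0393; −0.54 and 0.3 without it), with all CR arrays (11.01 to 11.40) below all controls (11.41 to 11.88). Igfbp3 also fell at the other 5 times, by 0.34 ± 0.07 (SE; limma, adjusted p = 0.0225), in a comparison that called 0.142% of genes. Foxo1, Foxo3, Insr and Igf1r did not pass.

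**Figure D4:**
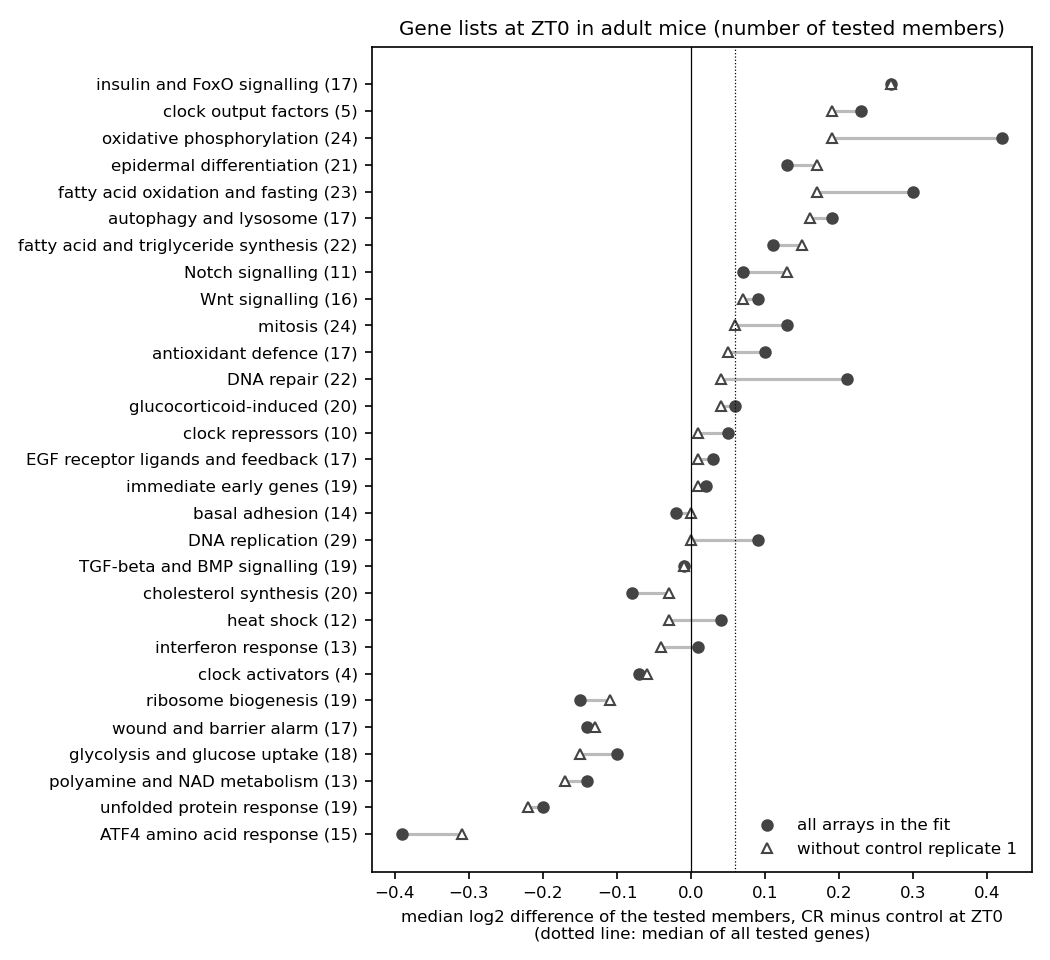
Median log2 difference of the tested members of 29 gene lists, CR minus control at ZT0 in adult mice (horizontal axis), with all arrays in the fit (filled) and without control replicate 1 (open). The amino acid response is lowest in both, insulin and FoxO signalling stays at 0.27, and oxidative phosphorylation moves to 0.19, against 0.42 with all arrays.

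Of the clock genes 2 passed at ZT0, Cry2 and Hlf, in a comparison that called 6.67% of all tested genes. None of the 4 tested activators passed (median −0.07). Arntl averaged 9.14 ± 0.44 under CR and 9.11 ± 0.36 on control diet (SD, n = 5 and 4; limma, adjusted p = 0.981), and Clock 6.52 ± 0.25 under CR and 6.77 ± 0.45 on control diet (adjusted p = 0.497). Npas2 averaged 7.88 ± 0.26 under CR and 8.04 ± 0.14 on control diet (adjusted p = 0.55), and Rora 11.0 ± 0.16 under CR and 10.9 ± 0.35 on control diet (adjusted p = 0.44). Of 10 repressors and their kinases Cry2 rose, with 7.38, 7.78, 7.54, 7.70 and 7.59 under CR and 6.41, 7.42, 7.78 and 6.50 on control diet. Control replicates 2 and 3 lay within the CR range, and the rise of 0.57 ± 0.18 (SE; limma, adjusted p = 0.0427) did not pass without control replicate 1 (0.37; 0.55). Hlf, an output factor of the D-box family, rose, alone among 5 outputs, by 0.61 ± 0.18 (adjusted p = 0.033), and gave 0.39 with an adjusted p of 0.532 without that array. A second Hlf probe set gave 0.02 ± 0.26 (SE) with all arrays.

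Per1, which the transgene reports, had 7.89, 7.99, 8.28, 8.26 and 8.40 under CR and 7.87, 9.03, 7.71 and 7.02 on control diet. The controls lay on both sides of the CR arrays, and the difference of 0.26 ± 0.23 did not pass (SE; limma, adjusted p = 0.534). Per2 differed by 0.02 ± 0.18 (adjusted p = 0.974), but a second Per2 probe set gave −0.73 ± 0.32. Per3 differed by −0.69 ± 0.30 (adjusted p = 0.151). For Per3 control replicate 1 was the highest array at 7.68, and a second probe set gave 0.51 ± 0.20. Cry1 differed by −0.47 ± 0.34 (adjusted p = 0.44) and Nr1d2 by 0.47 ± 0.20 (adjusted p = 0.131). Bhlhe40, Ciart, Csnk1d and Csnk1e lay between −0.49 and 0.28, and Dbp, Tef, Nfil3 and Wee1 between −0.17 and 0.29, with adjusted p of 0.216 or more. The signs of Arntl, Per1, Per2, Wee1, Csnk1d and Csnk1e turned under at least 1 alternative setting.

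**Figure D5:**
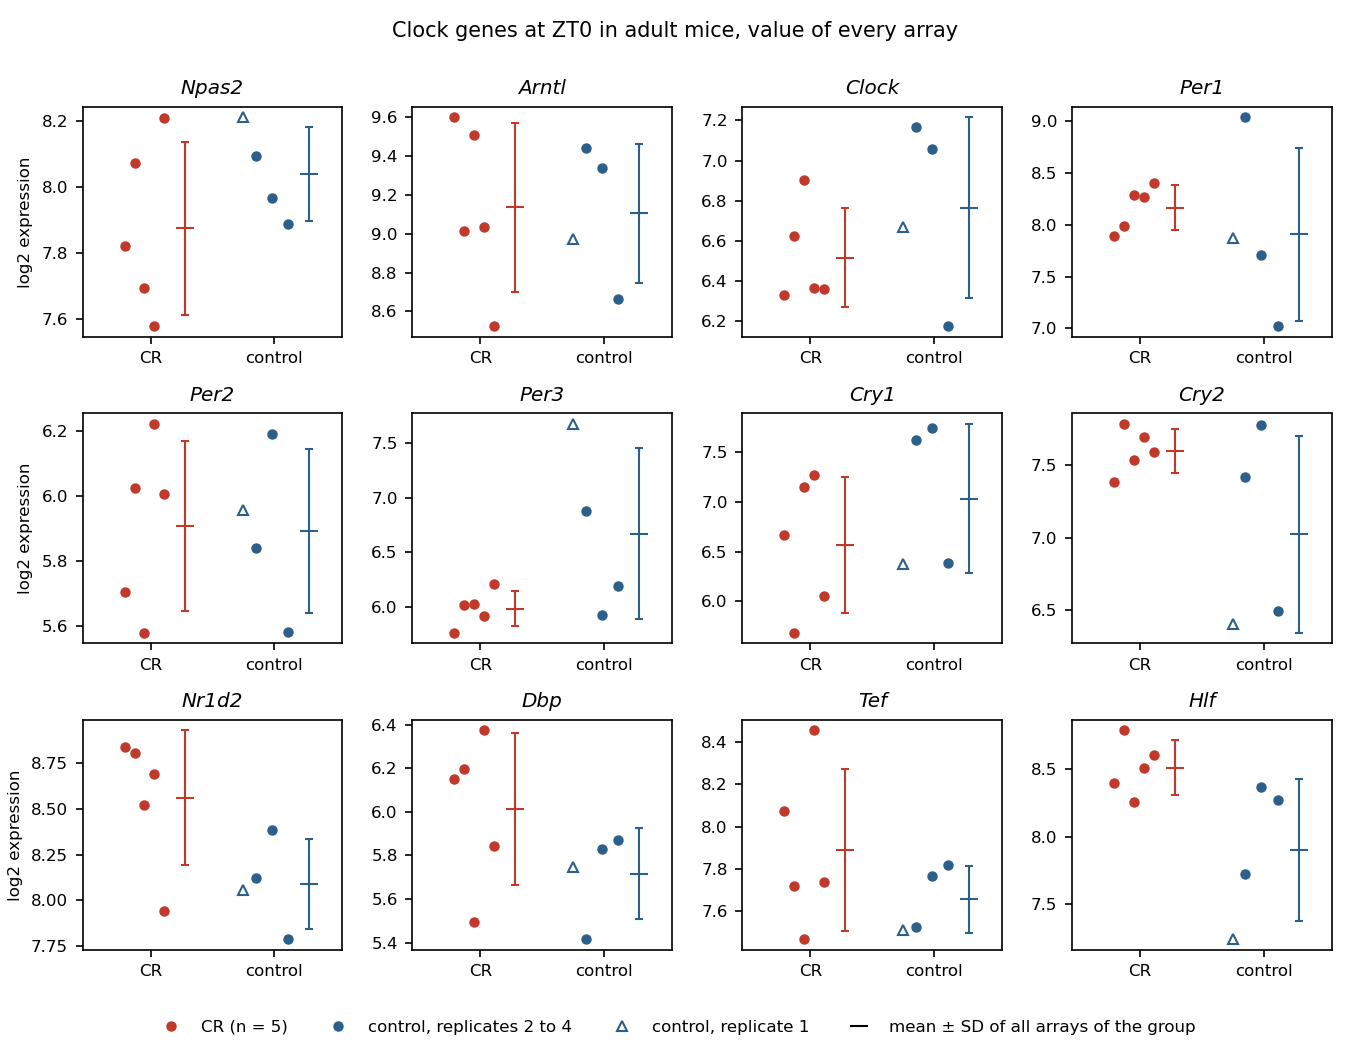
Log2 expression (vertical axis) of 12 clock genes at ZT0 on each CR and control array of adult mice, with the mean ± SD of each group; the open triangle is control replicate 1. The arrays of both diets overlap in all 12 genes, and Cry2 and Hlf have low control arrays, replicate 1 lowest in each.

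The remaining lists held 0 to 3 called genes each, in a comparison where 5.74% of all tested genes rose and 0.927% fell. In the list of EGF receptor ligands and feedback, Spry2 and Lrig1 rose by 0.99 ± 0.26 and 0.92 ± 0.25 (SE; limma, adjusted p = 0.0164 and 0.0189). Epgn, a ligand of the EGF receptor, fell by 0.79 ± 0.25 (adjusted p = 0.0416), and all 3 had groups that did not overlap. A second probe set of Spry2, about as bright, gave −0.38 ± 0.51 (SE), so the rise of Spry2 rests on its brightest probe set. Lrig1 had 9.24, 9.56, 9.22, 9.34 and 9.08 under CR and 7.23, 8.93, 8.90 and 8.38 on control diet, and Epgn 10.30, 10.69, 10.39, 10.72 and 9.88 under CR and 11.47, 11.24, 11.24 and 10.79 on control diet. Id1 and Hes1, target genes of BMP and Notch signalling, rose by 1.11 ± 0.33 and 0.79 ± 0.21 (adjusted p = 0.0299 and 0.019), and Wnt16 and the Wnt target Axin2 rose by 0.78 ± 0.21 and 0.62 ± 0.20 (adjusted p = 0.0179 and 0.0442). Of the DNA repair list 3 of 22 rose, Ddb1, Ddb2 and Ercc2, by 0.58, 0.55 and 0.36, and the list's median was 0.21 (0.04 without control replicate 1). Without control replicate 1 none of these passed, and the lowest adjusted p among them was 0.17, for Ddb2 and Ercc2.

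Ulk1, the kinase that starts autophagy, and the lysosomal protein Lamp1 rose by 0.63 ± 0.18 and 0.33 ± 0.08 (SE; limma, adjusted p = 0.0232 and 0.00814), and the mitophagy receptor Bnip3 fell by 0.81 ± 0.27 (adjusted p = 0.05 as rounded). Hmox1, the haem oxygenase, was the only antioxidant gene of 17 past the threshold and fell by 0.72 ± 0.16 (adjusted p = 0.00587). In adhesion to the basement membrane Col7a1 rose by 0.92 and the integrin Itga2 fell by 0.89, and Nr3c1, the glucocorticoid receptor, Ier2, Hspe1 and Dnajb1 rose. No gene passed in 9 of the 29 lists, among them DNA replication (29 tested, median 0.09), mitosis (24, 0.13), epidermal differentiation (21, 0.13), glycolysis (18, −0.10), ribosome biogenesis (19, −0.15), the wound and barrier alarm (17, −0.14) and the interferon response (13, 0.01). Without control replicate 1 only the amino acid response kept a called gene.

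The largest changes over all genes showed the same dependence. Of the 15 largest rises and 15 largest falls, control replicate 1 was the most extreme of the 9 arrays on its side in 14 of the rises and 11 of the falls. Over all tested genes it was the lowest in 27.2% and the highest in 16.4%. The named genes were picked for the size of their change, so such shares are background only. Among the 15 rises 5 had groups that did not overlap, against 2.9% of all tested genes: Tesc, Acot1, Ebpl, Sesn1 and Gpr146. Tesc, a calcium-binding regulator, had 8.19, 7.38, 8.34, 8.64 and 8.53 under CR and 6.96, 6.84, 7.18 and 6.15 on control diet, and its rise of 1.43 ± 0.39 (SE; limma, adjusted p = 0.0202) was 1.49 without control replicate 1 (adjusted p = 0.157). Crabp2, which carries retinoic acid to its receptors, had 9.38, 8.58, 9.19, 9.42 and 9.13 under CR and 6.95, 7.14, 8.60 and 8.45 on control diet. It rose by 1.35 ± 0.28 (adjusted p = 0.00278) and gave 1.08 with an adjusted p of 0.114 without that array. Rsrp1, Mbtps1, Cdc23, Ndufc2, Pet100 and Atg101 had control replicate 1 as the lowest array, and their differences of 1.24 to 1.57 were 0.43 to 0.69 without it. Other probe sets above the floor gave smaller differences with all arrays. These were 0.16 and 0.96 for Rsrp1, 0.04 and 0.28 for Mbtps1, 0.42 for Cdc23 and 0.20 for Pet100.

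Among the 15 falls 3 had groups that did not overlap, Chac1, Dio2 and Creb5, against 2.9% of all tested genes. Dio2, the deiodinase that activates thyroid hormone, had 7.21, 8.71, 8.21, 7.61 and 6.70 under CR and 9.79, 9.26, 10.09 and 8.85 on control diet, and fell by 1.81 ± 0.48 (SE; limma, adjusted p = 0.0186; −1.71 and 0.213 without control replicate 1). Creb5 fell by 1.12 ± 0.32 (adjusted p = 0.0247; 0.334 without it). Pmp22, a membrane protein named from myelin, had 8.89, 9.39, 10.07, 9.55 and 9.42 under CR and 11.75, 11.61, 10.43 and 9.98 on control diet, with 1 control inside the CR range. The secreted proteases Mmp10 and Mmp3 had overlapping groups, and their falls of 1.21 and 1.15 gave adjusted p of 0.203 and 0.396 without control replicate 1. Col18a1, a basement membrane collagen, fell by 1.02 ± 0.24 (adjusted p = 0.00737; 0.4 without control replicate 1). At the other 5 times it fell by 0.66 ± 0.11 (SE; limma, adjusted p = 0.000775), and the ZT0 effect minus that effect was −0.37 ± 0.26 (adjusted p = 0.488). A second Col18a1 probe set gave −0.26 ± 0.22 (SE) at ZT0.

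Whether the CR effect at ZT0 differed from that at the other 5 times was tested directly. With all arrays 88 genes passed (0.658%), 68 with a more positive (0.508%) and 20 with a more negative effect (0.149%) at ZT0, and without control replicate 1 the limma fit passed 0, with 759 at an unadjusted p under 0.05 (5.67%). The smallest p values were those of Zdhhc13, a palmitoyl transferase (−0.74 ± 0.14, adjusted p = 0.0064), and Chac1. Zdhhc13 averaged 7.57 ± 0.07 under CR and 8.26 ± 0.43 on control diet at ZT0, while its adult means at other times lay between 7.72 and 7.83 under CR and between 7.66 and 7.83 on control diet. Wnt16, a secreted Wnt, went the opposite way, 7.22 ± 0.27 under CR and 6.44 ± 0.45 on control diet at ZT0 against 7.04 to 7.37 under CR and 7.26 to 7.83 on control diet at other times (1.11 ± 0.23, adjusted p = 0.0177). Of the 9 genes picked out above, 5 passed with all arrays and 0 without control replicate 1. None of the 9 passed for the mean of the other times.

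The adult effect at ZT0 also differed from the aged effect in 1195 genes (8.93%) with all arrays and in 5 (0.0374%) without control replicate 1. In the aged mice CR replicate 4 stood apart too, with a median r of 0.895 to its group; without it 136 genes passed, and without both arrays 3. The 5 genes that passed without control replicate 1 were Specc1, Zdhhc13, Fbxw9, C2cd4b and Prpf40b. As only 3 genes passed without both arrays, not all 5 stayed called there. Specc1, a cytoskeletal protein, averaged 6.92 ± 0.13 under CR and 7.36 ± 0.24 on control diet in adult mice, and 7.50 ± 0.28 under CR and 6.96 ± 0.07 on control diet in aged mice. The effects had opposite signs, −0.45 ± 0.11 and 0.54 ± 0.11, and differed by −0.99 ± 0.16 (SE; limma, adjusted p = 0.000134; 0.00221 without control replicate 1). C2cd4b averaged 7.22 ± 0.14 under CR and 6.87 ± 0.24 on control diet in adult mice and 6.87 ± 0.25 under CR and 7.51 ± 0.09 on control diet in aged mice, a difference of effects of 0.98 ± 0.18 (adjusted p = 0.00198; 0.0215 without control replicate 1). Fbxw9 gave 0.83 ± 0.15 (adjusted p = 0.000902; 0.0111 without it) and Zdhhc13 −1.03 ± 0.18 (adjusted p = 0.000729; 0.017 without it). In the aged mice alone 2 genes passed at ZT0 (0.0149%), Specc1 and C2cd4b, and 0 of the 9 genes picked out above.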

How the data were processed

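The authors deposited 1 log2 level per probe set and array. The submitters' processing notes name RMA, a method that corrects background, normalises by quantiles and summarises probes, without a version. Amplification started from 25 ng of total RNA and ran for 17 cycles, per the labels' protocols. The table holds 45140 probe sets, of which 28898 carried 1 gene symbol in the platform annotation, 551 several and 15691 none. The brightest probe set with 1 symbol stood for a gene, which gave 17097 genes, and the 13383 whose mean was at or above the 30th percentile of probe set means (4.735) were tested. Values were used as deposited, since array medians of the 9 arrays lay between 5.502 and 5.686; the number of arrays limits the precision.

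Differences came from limma 3.58.1 in R 4.3.3 (lmFit and eBayes, two-sided), with a mean for each of 24 groups (age, diet, time) over all arrays and Benjamini-Hochberg adjustment over all tested genes at 0.05. The effect at ZT0 was also set against the mean effect at the other 5 times and against the aged effect. The text names some, not all, of the 15 largest rises and falls past the threshold (unnamed transcripts left out). It also names the tested clock genes, up to 4 called members of each list and the 10 smallest p values of each comparison of effects. The 29 pathway and 16 marker lists held symbols as given in the annotation. The comparison, lists and members were chosen with earlier results of these data known, and the 9 genes described first after their values were seen. The tests were tried on simulated data with independent normal noise, the same spread in every group for a gene and no array that stood apart. The simulation therefore does not cover an array like control replicate 1 or groups of unequal spread. The alternatives were a fit of the compared arrays alone, a replicate block, other floors, means of probe sets, 2 rescalings, array weights, Xist as a covariate, a variance trend, and each array left out.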

Additional observations from a re-analysis of the deposited data

Results flagged for a closer look

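The levels of 95 named genes and the array quality measures, in the CR and control groups at ZT0 in adult mice (202 sets of values), were checked for an array far from the rest of its group, and 9 were found; chance alone gives about 1 in 20 groups. Under CR, replicate 4 was high for Mmp10 (5.98, next 5.34) and Procr (5.20, next 4.80) and low for Col7a1 (9.24, next 9.60) and Axin2 (7.81, next 8.16). CR replicate 3 was high for Pik3r3 (6.59, next 5.78), and CR replicate 5 low for Atg101 (8.81, next 9.35). Control replicate 1 was low for Sesn1 (5.73, next 7.69), Gpr146 (5.94, next 7.48) and Fbxo32 (7.95, next 9.80).

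The CR effect at ZT0 differed from the mean effect at the other 5 times in adult mice, by the limma test of the difference, by −0.74 for Zdhhc13, −2.02 for Chac1, −0.99 for Dhx37, 1.11 for Wnt16, 0.63 for Pbxip1, 1.15 for Oas1c, −0.90 for Zscan22, −0.93 for Dcbld2, 0.54 for Hnrnpr and −0.54 for Rexo2. None of these passed without control replicate 1.

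The adult effect at ZT0 differed from the aged effect by −0.99 for Specc1, −1.03 for Zdhhc13, 0.83 for Fbxw9, 0.98 for C2cd4b, 0.82 for Hnrnpr, 1.25 for Kctd2, 0.69 for Cst3, 0.87 for Zfp219, 0.87 for Ccdc61 and 1.54 for Antkmt. Specc1, Zdhhc13, Fbxw9 and C2cd4b passed without control replicate 1 and the other 6 did not. Without aged CR replicate 4 as well, only 3 of all tested genes passed, so not all of these stayed called.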

How the results depend on the processing

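For CR against control at ZT0 (892 genes), the fit of the 9 arrays alone called 0, arrays centred on their medians 420 and array weights 2176, while the other settings without a block called 771 to 1037. With an array left out the count ran from 9 to 2684. The share that rose was 86.1% of calls, 70.4% after a further quantile normalisation and 56.3% with array weights, whose estimation did not fully converge. For ZT0 against the other times (88), adult arrays alone gave 231, centring 4 (25% higher), quantile normalisation 184 (58.2% higher against 77.3%), array weights 1525 (55.6%) and no filter on dim genes 78 (66.7%); with an adult ZT0 array left out 0 to 1722 passed. For adult against aged (1195), ZT0 arrays alone gave 0, centring 785, array weights 3518 (64.7% higher against 84.4%) and quantile normalisation 1504 (72.9%). With 1 ZT0 array left out, adult or aged, 5 to 2556 passed, and 3 without both arrays that stood apart; leaving out aged arrays was added after seeing the data, and gave 136 to 1957. The cause of these shifts was not tested.

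The deviations of same-numbered CR and control arrays correlated at 0.111, −0.155, 0.61 and 0.044. Those of differently numbered arrays lay between −0.409 and 0.402. No label says what the replicate numbers stand for, and these few values cannot decide whether they pair the arrays. With the replicate number as a block 514, 0 and 1539 genes passed in the 3 comparisons, in the order above.

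The 9 genes described first passed in every alternative except the fit of the 9 arrays alone. Passing the fits with 1 of the 9 arrays left out was fixed by how they were picked. The other alternatives refit the same values of genes already picked, so passing them is not independent support either. Chac1 ranged over −2.75 to −1.62 and Plin3 over 0.59 to 0.84. Chac1 and Procr have no value at the floor of the 50th percentile. Of the uncalled clock genes, Per2 gave −0.009 with the block, Arntl −0.13 and Per2 −0.358 with means of probe sets, Arntl −0.05 and Wee1 −0.03 after quantile normalisation, and Arntl −0.045, Per1 −0.557, Per2 −0.028, Csnk1e −0.275 and Wee1 −0.291 with array weights. Hnrnpr turned to −0.014 (other times) and −0.057 (aged) with means of probe sets. With an array left out, differences ran over −0.116 to 0.184 for Arntl, −0.088 to 0.115 for Per2, −0.074 to 0.184 for Wee1, −0.038 to 0.634 for Per1, −0.128 to 0.237 for Csnk1e and −0.016 to 0.444 for Csnk1d. Of 48 named genes with several probe sets above the floor, these differed in sign in 7, Arntl, Gpr146, Hnrnpr, Nr3c1, Per2, Per3 and Spry2. In others the sign was shared but the size differed, as for Rsrp1, Mbtps1, Pet100, Sesn1, Hlf, Dnajb1, Col18a1 and Hyou1.

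With 5 and 4 arrays, 1 of which stands apart, the call for most genes cannot be separated from that array. Probe sets near the floor understate differences, as for Chac1 and Procr under CR. Day of collection was not tested because no label ties arrays to days.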
